A study of Mus musculus with 27 samples.

Results

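Interferon response genes are switched on when a cell senses interferon, and 42 of them were followed here through regulatory T cell (Treg) development in mouse thymus and lymph node. Each gene was represented by its brightest probe set over 27 arrays among those that name a single gene symbol. In all, 40 of the 42 genes had such a probe set, of 18194 genes measured in the same way, and Isg15 and Ifi44 had none. The 40 genes were 22 antiviral effectors, 6 sensors, 4 transcription factors, 1 negative regulator, 4 interferon-inducible GTPases and 3 antigen processing genes. These roles are broad, and the genes counted as sensors include Adar, an RNA editing enzyme, and Trim25, which are not sensors in the strict sense.

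T lymphocytes of BALB/c mice were sorted into 9 groups, and the RNA of 3 samples per group was hybridised to Affymetrix arrays. Thymus gave Treg precursors, which the series title places among Foxp3GFP-CD25+ cells, and CD4 single-positive cells of the Foxp3+GFP+ and Foxp3-GFP- kinds, each in 3 gates of falling CD24 (CD24hi, then CD24int, then CD24lo). Lymph node gave peripheral Tregs and naive T cells. The study set Foxp3+ subsets of different maturity against Foxp3- conventional subsets, CD24 being a surface protein that is lost as thymocytes mature. Foxp3- group labels carry the word Treg, but these cells were compared as conventional cells, as the design states. The labels give no age, no treatment, no CD24 level for the precursors and no sign that replicates came from separate animals. All p-values therefore measure the spread between these samples, which may be technical.

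The genes that define the sorts were measured first. Foxp3 had group means of 9.90 to 10.07 log2 units in the 4 groups sorted as Foxp3+ cells or Tregs and of 3.80 to 4.17 in the 5 others. Il2ra, which encodes CD25, stood at 8.16 ± 0.29 (SD, n = 3) in precursors, and Cd24a declined from 10.93 ± 0.24 to 6.00 ± 0.82 along the Foxp3- gates and from 10.34 ± 0.50 to 7.63 ± 0.40 along the Foxp3+ gates. Replicate 3 of Foxp3- CD24hi stood apart. Its 4 liver transcripts (Alb, Hpx, Apoa1 and Ttr) averaged 10.21 log2 units against 4.25 to 4.73 on the other arrays, so counts of called genes that rest on Foxp3- CD24hi are given with and without it. Replicates of a group correlated at r = 0.987 to 0.997 across genes, and the number of arrays limits the precision.

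Type I interferon signals through the receptor chains encoded by Ifnar1 and Ifnar2, and interferon gamma through those of Ifngr1 and Ifngr2. Type I interferon brings STAT2 and IRF9 to interferon-stimulated response elements (ISREs), and interferon gamma acts through gamma-activated sites (GAS). The induced proteins block viruses and other intracellular microbes, raise antigen processing, and in the case of Usp18 shut the receptor's signalling down. In the thymic medulla, interferon made without infection is known to reach maturing thymocytes, and late single-positive thymocytes are known to carry an interferon signature.

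Promoter windows of 31 of the 40 genes were found in a RefSeq table (GRCm38.p6, 250 bases before to 50 after the start). The other 9 were Mx1, Mx2, Oas2, Rtp4, Parp9, Parp14, Dhx58, Zbp1 and Usp18. The ISRE core was searched as GAAA, any 2 bases and GAAA on both strands, where overlapping matches each counted, and was found in 13 of the 31 (41.9%) and in 3.63% of the 14453 genes tested that had a window. Of all 18110 windows of those genes, 3.03% held it. GAS was searched as TTCNNNGAA, a palindrome that can overlap an ISRE core, and was found in 11 of the 31 (35.5%), against 8.57% of the 14453 genes and 7.21% of the windows. A match is a description of the letters and does not show binding. Stretches around the ISRE core are shown for 6 genes whose levels differ below, 5′ to 3′ on the gene's own strand, with the bases of that core, or of its complement (TTTC, any 2 bases and TTTC), in capitals. Gbp3 lies on the plus strand (chr3:142559979-142560034), as does its relative Gbp2 (chr3:142620584-142620633). Oas1a (chr5:120907526-120907565) and Oas3 (chr5:120777705-120777754) lie on the minus strand, and Ifit3 (chr19:34583353-34583436) and Igtp (chr11:58199502-58199551) on the plus strand.
Gbp3: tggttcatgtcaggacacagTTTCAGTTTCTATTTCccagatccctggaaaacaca
Gbp2: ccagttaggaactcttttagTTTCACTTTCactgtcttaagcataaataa
Oas1a: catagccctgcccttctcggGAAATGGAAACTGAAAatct
Oas3: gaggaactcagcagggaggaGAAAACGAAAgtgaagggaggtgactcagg
Ifit3: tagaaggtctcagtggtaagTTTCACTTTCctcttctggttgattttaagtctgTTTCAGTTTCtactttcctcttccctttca
Igtp: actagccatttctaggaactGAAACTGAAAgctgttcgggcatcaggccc

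Gbp3, Oas1a and Ifit3 each held 2 matches, overlapping in Gbp3 and Oas1a and spaced apart in Ifit3. The stretches began 65 bases before the start in Gbp3, 79 in Gbp2, 40 in Oas1a, 95 in Oas3, 176 in Ifit3 and 54 in Igtp. Counts in the early steps described below were as follows, with no test of the difference. From precursors to Foxp3+ CD24hi, 7 of the 13 genes with the core rose (median difference 0.52), as did 13 of the 18 without it (0.57) and 7 of the 9 with no window, where 6.77% of all genes rose. From Foxp3- CD24hi to CD24int, 9 of the 13 rose (0.59), of the 18 without the core 8 rose and 1 fell (0.42), and of the 9 with no window 5 rose, where 2.26% of all genes rose. Without replicate 3 of Foxp3- CD24hi these rises numbered 5, 6 and 3, and 1.45% of all genes rose.

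Most of the 40 genes were lowest in precursors or in lymph node naive T cells and highest in thymocytes past the CD24hi stage. The mean deviation of the 40 genes from their own 27-array means was lowest in precursors, at -0.45 ± 0.04 log2 units (SD, n = 3 arrays). In Foxp3- cells it was -0.15 ± 0.11 at CD24hi, 0.35 ± 0.09 at CD24int and 0.21 ± 0.12 at CD24lo. Foxp3+ cells stood at 0.15 ± 0.04, 0.24 ± 0.03 and 0.16 ± 0.04 at the same gates. Lymph node naive T cells stood at -0.36 ± 0.06 and lymph node Tregs at -0.17 ± 0.06. Ranges of the arrays did not overlap between Foxp3- CD24hi, at most -0.02, and any of the 5 other single-positive thymic groups, of which the lowest array stood at 0.11. Foxp3- CD24int and CD24lo overlapped, as did Foxp3- CD24lo with each of the 3 Foxp3+ gates. In bulk RNA, fewer cells that express a gene and less RNA per cell cannot be told apart.

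**Figure D1:**
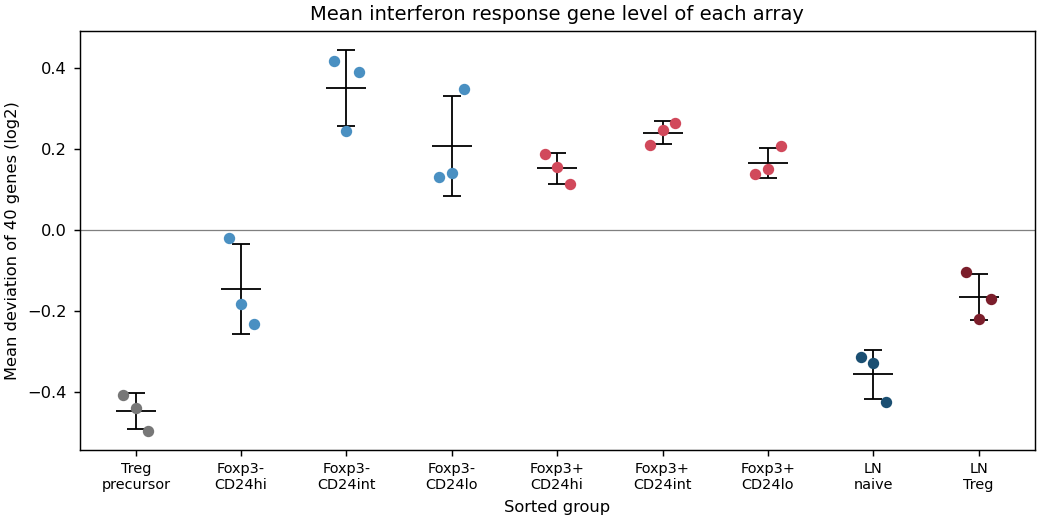
Mean deviation (log2) of the 40 interferon response genes from each gene's mean over 27 arrays, for every array of the 9 groups. Points are arrays, long bars group means and short bars 1 SD (n = 3). Precursors (-0.45) and lymph node naive T cells (-0.36) lie lowest, and Foxp3- CD24int (0.35) lies highest.

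Across the 9 group means, 17 genes peaked in Foxp3- CD24int, 8 in Foxp3+ CD24int, 6 each in Foxp3- CD24lo and lymph node Tregs, 2 in Foxp3+ CD24hi and 1 in Foxp3+ CD24lo. The low point fell in precursors for 16 genes, in lymph node naive T cells for 13 and in lymph node Tregs for 7. Ifih1, an RNA sensor, and Xaf1, an apoptosis regulator, followed the mean of the other 39 genes most closely over the 9 groups (each r = 0.91), and Ifit3 came next (r = 0.90). Gbp3 (0.18), Gbp2 (0.18) and Samhd1 (0.19) followed it least. These correlations describe 9 group means that share arrays and normalisation.

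**Figure D2:**
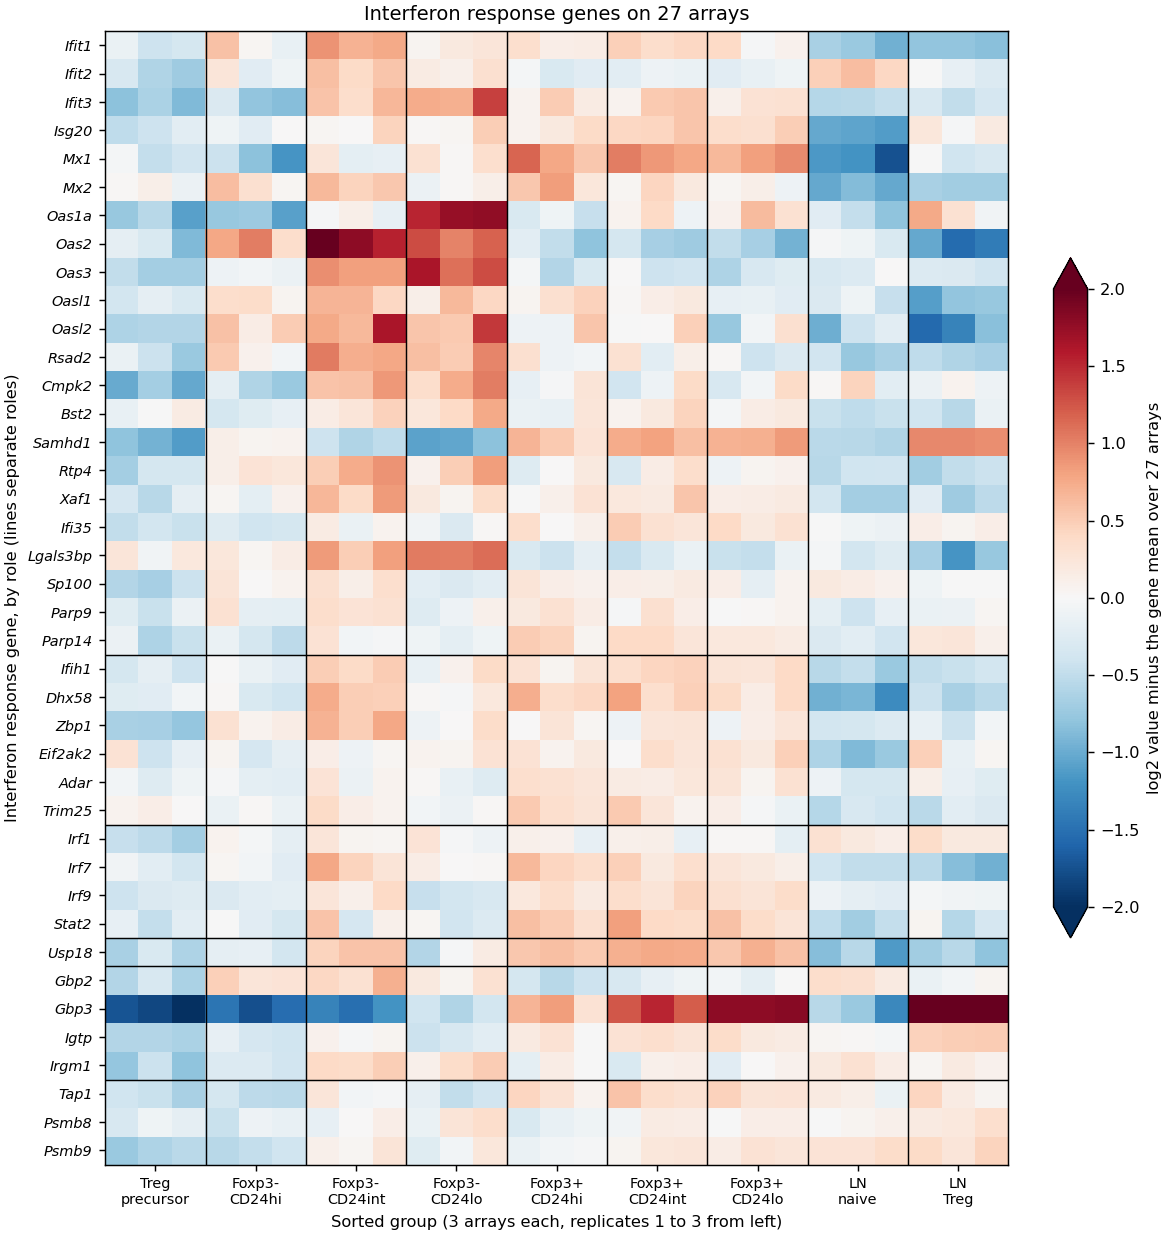
Level of each of the 40 interferon response genes on each of 27 arrays, as log2 value minus the gene's own mean (colour, red above and blue below the mean, saturating at 2 log2 units). Rows are ordered by role and columns by sorted group with replicates 1 to 3. Gbp3, Samhd1 and Mx1 are red in Foxp3+ cells, while Oas2, Oas3 and Lgals3bp are red in Foxp3- CD24int and CD24lo cells.

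The widest ranges of group means belonged to Gbp3 (4.29 log2 units), Oas2 (3.15), Oas1a (2.53), Oasl2 (2.25), Mx1 (2.25), Oas3 (1.96), Samhd1 (1.93) and Lgals3bp (1.92). The narrowest belonged to Psmb8, an immunoproteasome subunit (0.47), and Adar, an RNA editing enzyme (0.56). The spread within a group averaged 0.21 for Gbp3, 0.27 for Oas2 and 0.40 for Oasl2.

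**Figure D3:**
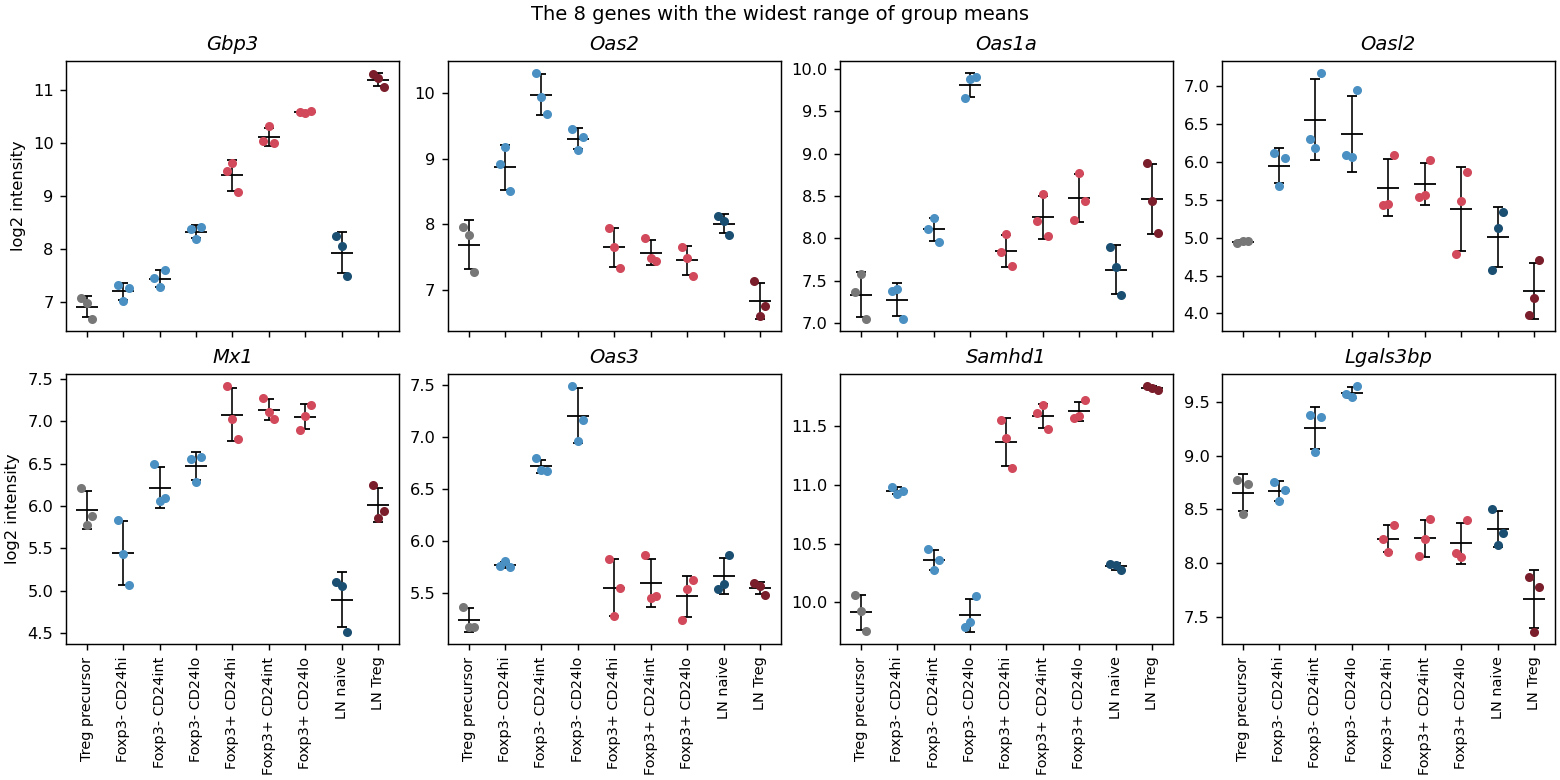
Log2 intensity of the 8 genes with the widest range of group means, on each array of the 9 groups. Points are arrays, long bars group means and short bars 1 SD (n = 3). Gbp3 and Samhd1 are highest in lymph node Tregs, and Oas2, Oas1a, Oasl2, Oas3 and Lgals3bp are highest in Foxp3- CD24int or CD24lo cells.

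The passage from Treg precursors to Foxp3+ CD24hi cells carried the largest count of higher genes. Of the 40 genes, 27 were higher in Foxp3+ CD24hi cells and 1 was lower, where 6.77% of all genes were higher and 9.27% lower (limma, Benjamini-Hochberg adjusted p under 0.05 over 18194 genes, as in every count that follows). The median difference was 0.57 log2 units, against 0.02 over all genes, and 37 of the 40 differences were positive. Arrays of the groups did not overlap in 34 of the 40 genes, as in 26.9% of all genes. By role, 13 of 22 effectors, 4 of 6 sensors, all 4 transcription factors, the negative regulator Usp18, 3 of 4 GTPases and 2 of 3 antigen processing genes were higher.

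Gbp3, a guanylate-binding protein that acts on microbes inside cells, stood at 7.07, 6.98 and 6.69 in the 3 precursor samples and at 9.48, 9.63 and 9.08 in Foxp3+ CD24hi. Every Foxp3+ sample was above every precursor, and the difference of 2.48 ± 0.16 (SE) was 5.58-fold (adjusted p = 1.28e-10). Samhd1, which breaks down the nucleotides that viruses need, stood at 10.06, 9.93 and 9.76 in precursors and at 11.55, 11.40 and 11.15 in Foxp3+ CD24hi, again without overlap (1.45 ± 0.11, adjusted p = 7.85e-10). Mx1, a dynamin-like antiviral GTPase whose BALB/c allele is known to give no functional protein, rose by 1.12 ± 0.19 (adjusted p = 0.000139).

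Usp18 removes ISG15 from proteins and restrains the type I interferon receptor. It stood at 8.17, 8.52 and 8.20 in precursors and at 9.37, 9.43 and 9.35 in Foxp3+ CD24hi, with no overlap (1.08 ± 0.15, adjusted p = 1.07e-05). Ifit3, which binds viral RNA complexes, rose from 6.30, 6.49 and 6.23 to 7.18, 7.62 and 7.28 (1.02 ± 0.17, adjusted p = 0.000109). Cmpk2, a mitochondrial nucleotide kinase, rose by 0.93 ± 0.21 (adjusted p = 0.00257). The transcription factors rose by 0.76 ± 0.19 (Stat2), 0.70 ± 0.13 (Irf7), 0.57 ± 0.09 (Irf9) and 0.57 ± 0.12 (Irf1), with adjusted p of at most 0.00512. Among antigen processing genes the peptide transporter Tap1 (0.76 ± 0.13) and Psmb9 (0.57 ± 0.11) rose, with adjusted p of at most 0.000399.

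Genes outside this rise included Oas2, which makes the oligoadenylates that activate RNase L. It stood at 7.96, 7.84 and 7.27 in precursors and at 7.94, 7.65 and 7.34 in Foxp3+ CD24hi, so that the groups overlapped (-0.04 ± 0.20, adjusted p = 0.933). Lgals3bp, a secreted glycoprotein that binds galectins, was the 1 gene lower (-0.43 ± 0.14, adjusted p = 0.0357). Its call was lost without precursor replicate 1 (adjusted p = 0.129), precursor replicate 3 (0.119), Foxp3+ CD24hi replicate 1 (0.0877) or Foxp3+ CD24hi replicate 2 (0.152). Immature thymocyte markers moved with this step: 5 of 5 were lower in Foxp3+ CD24hi, and their part in the result was not tested. Of 6 natural killer (NK) and innate-like T cell markers, 3 were lower and 1 higher, with summed intensities of 210.2 to 467 in precursors and 216 to 270.4 in Foxp3+ CD24hi. Plasmacytoid dendritic cell markers had 1 lower of 5 (sums of 1980 to 3327 in precursors and 1049 to 1363 in Foxp3+ CD24hi). Antigen-presenting cell markers had 1 lower of 7 (380 to 592 and 267 to 428) and CD8 T cell markers 1 lower of 2. The part of these lists was not tested either.

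Precursors also stood below Foxp3- CD24hi cells for part of the set. Of 40 genes, 0 were higher in precursors and 14 were lower by limma, where 5.08% of all genes were higher and 4.03% lower (9.11% in all). At an unadjusted p under 0.05 the counts were 1 and 18. The median difference was -0.28 against -0.01 over all genes, and without the liver-transcript array 0 were higher and 13 lower. The count fell to 8 without precursor replicate 3 and to 9, with 1 higher and 8 lower, without Foxp3- CD24hi replicate 1. Once replicate number entered as a block, 1 gene was higher and 15 lower (7.83% and 6.85% of all genes).

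Oas2 led these differences, with 8.92, 9.18 and 8.50 in Foxp3- CD24hi against the precursor values given above. The groups did not overlap (-1.18 ± 0.20, adjusted p = 0.000222). Samhd1 differed by -1.04 ± 0.11 (adjusted p = 1.46e-07), Zbp1, a sensor of Z-form nucleic acids, by -0.87 ± 0.13 (adjusted p = 5.61e-05) and Gbp2 by -0.85 ± 0.12 (adjusted p = 1.39e-05). Irf1 was the 1 transcription factor of the 4 that passed (-0.51 ± 0.12, adjusted p = 0.00451). Mx1 was not called (0.51 ± 0.19, adjusted p = 0.11), but was higher in precursors once replicate number entered as a block (adjusted p = 0.0206). NK and innate-like T cell markers were higher in precursors in 3 of 6 (sums of 210.2 to 467 against 118 to 166) and immature thymocyte markers higher in 3 and lower in 1 of 5. Plasmacytoid dendritic cell markers, which share Ccr9 with the immature thymocyte list, were lower in 1 of 5 (sums of 1980 to 3327 against 5417 to 7574). Their mean log2 values were close, at 7.23 in precursors and 7.31 in Foxp3- CD24hi, and the median difference was 0.22. These marker counts were the same without the liver-transcript array, and their part in the result was not tested.

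Foxp3- thymocytes, which the design treats as conventional cells, were compared along the CD24 gates. Between CD24hi and CD24int, 22 of the 40 genes rose and 1 fell, where 2.26% of all genes rose and 2.75% fell (5.01% in all). The median difference was 0.52 against 0.00 over all genes, and 39 of 40 differences were positive. Arrays did not overlap in 29 genes, as in 19.1% of all genes. Without the liver-transcript array the counts were 14 and 1 (1.45% and 2% of all genes), the median 0.49 and the non-overlapping genes 30 (27.9% of all genes), and without Foxp3- CD24int replicate 1 they were again 14 and 1. Fitted on the compared groups alone, 10 rose and 1 fell.

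Of the 22 effectors 12 rose, and 8 did so without the liver-transcript array. Cmpk2 stood at 6.37, 5.97 and 5.82 at CD24hi and at 7.15, 7.16 and 7.43 at CD24int, with no overlap (1.19 ± 0.21, adjusted p = 0.000624). Ifit3 rose from 6.82, 6.32 and 6.26 to 7.68, 7.46 and 7.78 (1.17 ± 0.17, adjusted p = 6.17e-05). Oas2 reached 10.30, 9.94 and 9.69, the highest values of any group (1.11 ± 0.20, adjusted p = 0.000922).

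Its relatives Oas3 (0.95 ± 0.15, adjusted p = 0.000123) and Oas1a (0.83 ± 0.19, adjusted p = 0.00927) rose too. The Oas1a call was lost without Foxp3- CD24hi replicate 3 (0.71, adjusted p = 0.0684) or Foxp3- CD24int replicate 2 (0.76, adjusted p = 0.0571). Sensors were represented by Dhx58, which tunes RNA sensing (0.80 ± 0.14, adjusted p = 0.000487), with Ifih1 and Zbp1, and transcription factors by Irf7 (0.58 ± 0.13) and Irf9 (0.48 ± 0.09). Without the liver-transcript array Zbp1 (adjusted p = 0.104) and Irf7 (adjusted p = 0.05) no longer passed. Usp18 rose by 0.77 ± 0.15 (adjusted p = 0.00174), and both the GTPase Irgm1 (0.73 ± 0.13) and Psmb9 (0.61 ± 0.11) rose with adjusted p of at most 0.000801.

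Samhd1 ran the other way. It stood at 10.98, 10.92 and 10.95 at CD24hi and at 10.45, 10.27 and 10.36 at CD24int, without overlap (-0.59 ± 0.11, adjusted p = 0.000747). Averaged over its 5 probe sets it was not called (-0.38, adjusted p = 0.0713), although all 5 were lower at CD24int. Gbp3 was not called (0.24 ± 0.16, adjusted p = 0.541).

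Markers of other cells also moved at this step. NK and innate-like T cell markers were higher in 4 of 6 cases, with summed intensities of 118 to 166 at CD24hi and 241 to 454 at CD24int. Immature thymocyte markers were lower in 4 of 5, with sums of 7339 to 9469 at CD24hi and 1531 to 2158 at CD24int. Plasmacytoid dendritic cell markers had 1 higher and 1 lower of 5, and antigen-presenting cell markers 1 higher of 7. Without the liver-transcript array the NK list had 2 higher, and the higher genes of the last pair of lists, Siglech (adjusted p = 0.199) and Fcer1g (adjusted p = 0.0968), no longer passed. Their part in the result was not tested.

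From CD24int to CD24lo in Foxp3- cells, 3 genes rose and 14 fell, where 7.86% of all genes rose and 4.13% fell, and the median was -0.22 against 0.01 over all genes. The count of 17 fell to 10 without Foxp3- CD24int replicate 1, to 11 without replicate 1 or replicate 2 of Foxp3- CD24lo, and to 11 with the compared groups alone. Oas1a rose from 8.11, 8.24 and 7.96 to 9.65, 9.88 and 9.90, above every sample of every other group (1.70 ± 0.19, adjusted p = 3.96e-07). Gbp3 rose by 0.89 ± 0.16 (adjusted p = 0.000305). Oas3 rose by 0.49 ± 0.15 (adjusted p = 0.0256), a call lost in the fit of the compared groups alone (adjusted p = 0.0676), without replicate 2 or 3 of CD24int (0.0767 and 0.0809) and without replicate 1 or 3 of CD24lo (0.176 and 0.0556).

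Usp18 and 2 of the 4 transcription factors, Irf7 and Irf9, were among the genes that fell. Usp18 fell from 9.27, 9.39 and 9.40 to 8.25, 8.80 and 9.00 (-0.68 ± 0.15, adjusted p = 0.00249), and Irf9 from 10.08, 9.95 and 10.24 to 9.38, 9.48 and 9.53 (-0.63 ± 0.09, adjusted p = 1.36e-05). Neither overlapped. Ifit1 (-0.62 ± 0.14), Zbp1 (-0.56 ± 0.13) and Samhd1 (-0.47 ± 0.11) fell with adjusted p of at most 0.00468. At this step 5 of 6 NK and innate-like T cell markers were higher and 1 lower, with sums of 241 to 454 at CD24int and 2859 to 3972 at CD24lo. Of 4 mature thymocyte and lymph node T cell markers, 0 were higher and 3 lower (median -1.08), with sums of 9221 to 12003 and 8848 to 10610. Immature thymocyte markers were lower in 2 of 5. The part of these lists in the result was not tested.

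Over the whole way from CD24hi to CD24lo in Foxp3- cells, 11 genes rose and 2 fell (9.16% and 7.56% of all genes), and without the liver-transcript array 11 rose and 3 fell. The fall count was 1 without Foxp3- CD24hi replicate 1 or Foxp3- CD24lo replicate 2. Oas1a rose 5.78-fold (2.53 ± 0.19, adjusted p = 2.87e-10), Ifit3 by 1.58 ± 0.17 (adjusted p = 9.36e-08) and Oas3 by 1.43 ± 0.15 (adjusted p = 3.61e-08), while Samhd1 fell by 1.06 on the log2 scale (SE 0.11, adjusted p = 2.74e-08). Oas2 was not called over this span (0.44 ± 0.20, adjusted p = 0.164), though it passed with the replicate block (adjusted p = 0.016). The 6 NK and innate-like T cell markers had summed intensities of 2859 to 3972 at CD24lo, and 5 of 6 were higher than at CD24hi and 0 lower. Antigen-presenting cell markers had 3 higher and 0 lower of 7 (sums of 329 to 382 at CD24hi and 601 to 791 at CD24lo). Plasmacytoid dendritic cell markers had 2 higher and 1 lower of 5, and immature thymocyte markers 4 lower of 5. Without the liver-transcript array the antigen-presenting cell list had 2 higher and the plasmacytoid dendritic cell list 1 higher and 1 lower. The interferon gamma gene Ifng rose from 3.78 ± 0.31 at CD24hi to 6.11 ± 1.15 at CD24int and 9.49 ± 0.08 at CD24lo (SD, n = 3). Their part in the result was not tested.

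Foxp3+ cells had few called changes over the same gates, among the 40 genes as among all genes. By limma 0 of 40 genes passed from CD24hi to CD24int (0.242% of all genes rose and 0.044% fell), and at an unadjusted p under 0.05, 6 were higher and 1 lower. From CD24int to CD24lo 0 passed (0.011% rose and 0.0055% fell), with 1 higher and 2 lower at an unadjusted p under 0.05. From CD24hi to CD24lo 1 gene rose and 0 fell (2.29% and 0.808% of all genes, 3.1% in all). The medians of the 40 genes were 0.05, -0.08 and -0.02, and the last was 0.00067 with the mean of all probe sets. Gbp3 was the gene that rose, to 10.59, 10.58 and 10.61 at CD24lo from the CD24hi values given above, without overlap (1.20 ± 0.16, adjusted p = 5.34e-05).

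Same-numbered arrays deviated together in these Foxp3+ groups, and the replicate number as a block changed the counts. With it, 1 gene rose from CD24hi to CD24int (0.912% of all genes), Gbp3 (0.73, adjusted p = 0.0151, against 0.0518 without the block). From CD24hi to CD24lo 4 rose and 3 fell (4.77% and 2.38% of all genes with the block). Oas1a (0.62, adjusted p = 0.0123), Psmb9 (0.29, 0.0339) and Psmb8 (0.26, 0.0494) joined Gbp3, and Mx2 (-0.51, 0.017), Oasl1 (-0.45, 0.0228) and Irf7 (-0.29, 0.0393) were lower. From CD24int to CD24lo 0 passed with the block as well. Without Foxp3+ CD24hi replicate 2, Gbp3 passed from CD24hi to CD24int, and without replicate 1 or replicate 3 of that group 1 gene rose and 1 fell from CD24hi to CD24lo.

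The changes along the gates differed between Foxp3+ and Foxp3- cells for some genes. Tested as an interaction, the change from CD24hi to CD24int was more positive in Foxp3+ cells for 1 gene and more negative for 7 (1.01% and 0.533% of all genes, 1.54% in all). Samhd1 was the first (0.81 ± 0.15, adjusted p = 0.00331), and Oas3 (-0.90 ± 0.21, adjusted p = 0.0198) was among the second. The count of 8 was not stable. Leaving out any 1 of the 12 arrays gave 2 to 6 calls, 2 of them without the liver-transcript array, with 5 or fewer except without Foxp3- CD24hi replicate 1, and the compared groups alone gave 1.

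Oas3 missed the threshold without Foxp3- CD24int replicate 1, Foxp3+ CD24hi replicate 1 or replicates 2 or 3 of Foxp3+ CD24int (adjusted p = 0.0596 to 0.0718) and with the compared groups alone (0.0674), and Samhd1 with the mean of its probe sets (0.44, adjusted p = 0.241). From CD24hi to CD24lo the counts were again 1 and 7 (4.09% and 4.45% of all genes, 8.54% in all), and 1 and 6 without the liver-transcript array. Samhd1 stood at 1.32 ± 0.15 (adjusted p = 7.37e-07), and Oas1a at -1.91 ± 0.27 (adjusted p = 2.39e-05), Ifit3 at -1.60 ± 0.24 (adjusted p = 4.51e-05) and Oas3 at -1.52 ± 0.21 (adjusted p = 1.07e-05). From CD24int to CD24lo, Irf9 (0.59 ± 0.13, adjusted p = 0.00459) and Samhd1 (0.51 ± 0.15, adjusted p = 0.0467) were more positive in Foxp3+ cells and Oas1a more negative (-1.48 ± 0.27, adjusted p = 0.000883), a count of 2 and 1 (1.41% and 3.57% of all genes, 4.97% in all). With the compared groups alone the Irf9 value had an adjusted p of 0.0505. The Samhd1 call was lost when any of the 12 arrays was left out other than Foxp3- CD24int replicate 2, Foxp3- CD24lo replicate 3 and Foxp3+ CD24int replicate 2 (adjusted p = 0.0575 to 0.133). It was also lost with the mean of its probe sets (0.196), quantile normalisation (0.0548) and the compared groups alone (0.119).

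**Figure D4:**
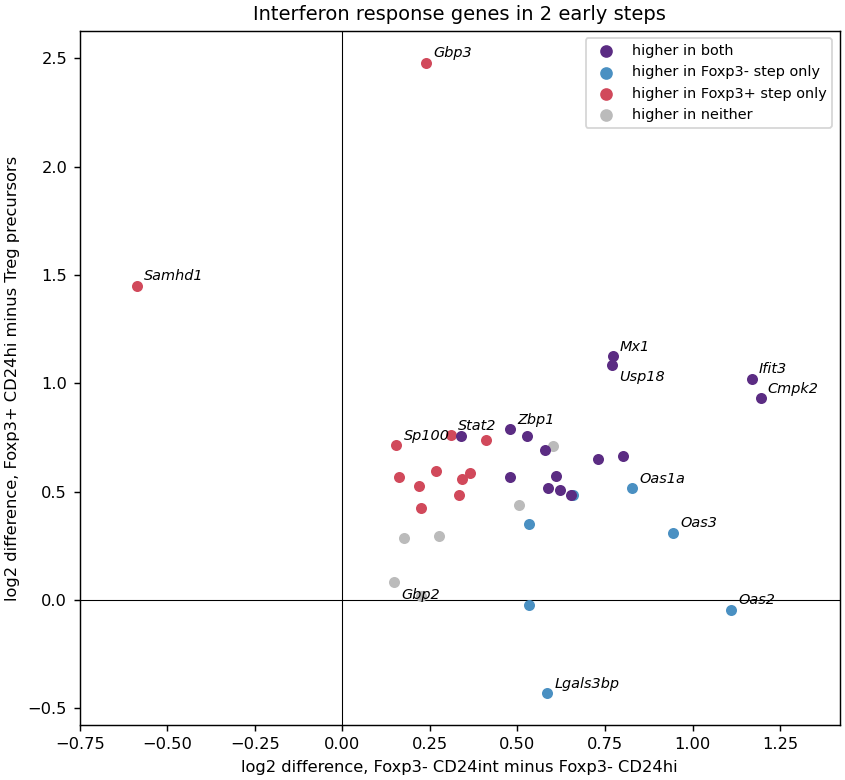
Each point is 1 of 40 interferon response genes, placed by its log2 difference between Foxp3- CD24int and CD24hi cells (x axis) and between Foxp3+ CD24hi cells and Treg precursors (y axis). Colours show which step was called higher. Most points lie in the upper right, while Samhd1 (-0.59 and 1.45) and Gbp3 (0.24 and 2.48) lie apart.

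The step that opened the Foxp3+ branch and the first Foxp3- step rest on separate arrays. Called rises were shared by 15 genes, 68.2% of the 22 that rose in Foxp3- cells and 55.6% of the 27 that rose from precursors to Foxp3+ CD24hi. Of all 40 genes, 67.5% rose from precursors to Foxp3+ CD24hi and 55% rose in Foxp3- cells. The shared part was thus about what these 2 shares alone would give. Without the liver-transcript array 9 were shared (64.3% of 14 and 33.3% of 27), namely Cmpk2, Dhx58, Ifih1, Ifit3, Irf9, Irgm1, Psmb9, Usp18 and Xaf1. The sizes of the 2 differences were nearly unrelated across the 40 genes (r = -0.13, across genes that are not independent).

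Foxp3+ and Foxp3- cells of the same gate were set against each other to ask how Treg commitment and the gene set go together. At CD24hi, 18 of 40 genes were higher in Foxp3+ cells and 3 lower (8.38% and 9.65% of all genes), with a median of 0.32 against 0.00 over all genes. Without the liver-transcript array 15 were higher and 2 lower. At CD24int 4 were higher and 12 lower (8.66% and 6.62% of all genes, median -0.08 against -0.01), and without Foxp3+ CD24int replicate 1 the counts were 3 and 6. At CD24lo 10 were higher and 10 lower (9.85% and 11.2% of all genes, 21% in all, median 0.03 against -0.01), and without Foxp3- CD24lo replicate 2 the counts were 6 and 9.

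**Figure D5:**
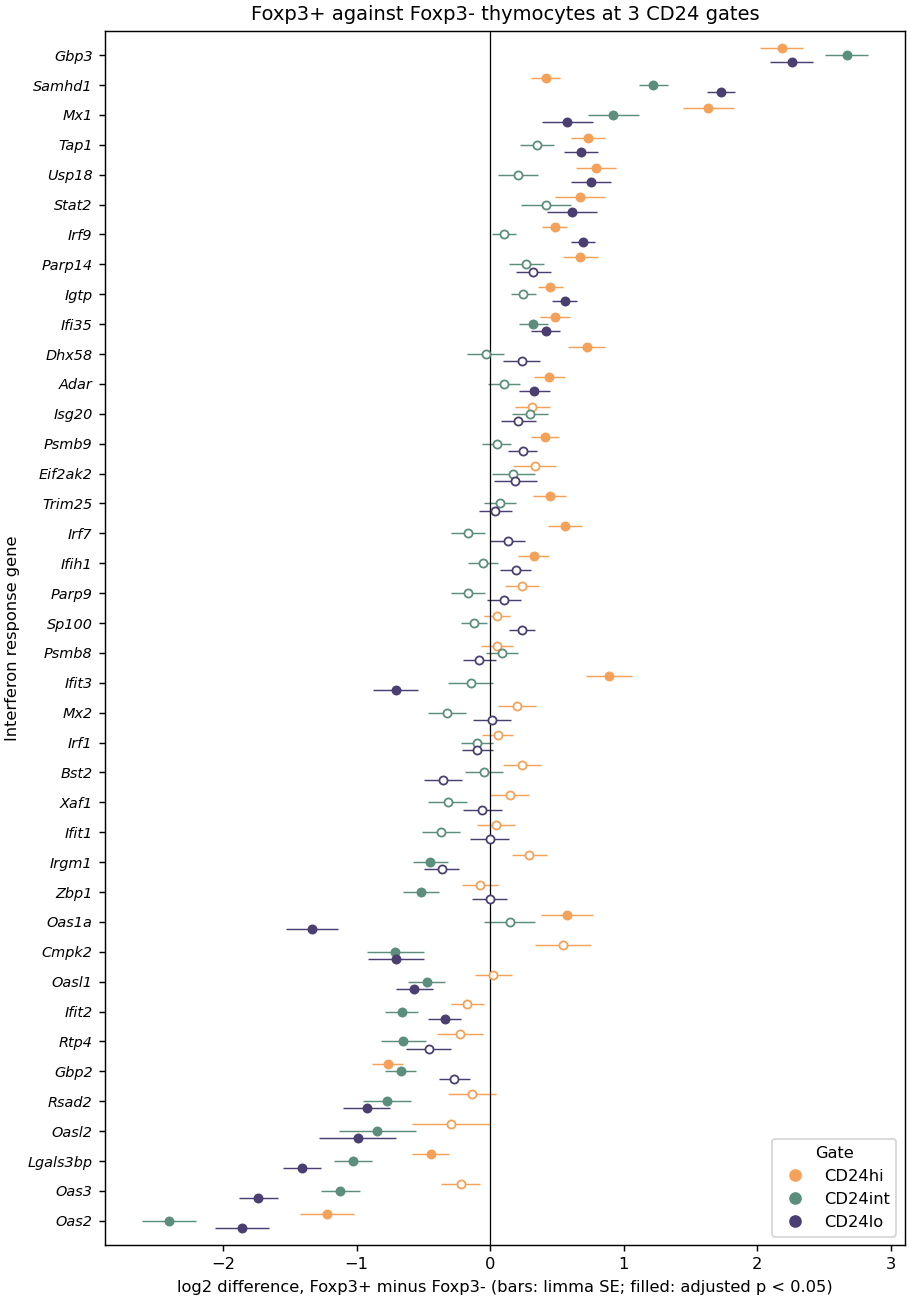
Log2 difference between Foxp3+ and Foxp3- thymocytes of the same CD24 gate for the 40 interferon response genes, ordered by the mean of the 3 differences. Points are limma estimates with SE bars, filled where the adjusted p was under 0.05. Gbp3, Samhd1 and Mx1 lie right of 0 at every gate, and Oas2 and Lgals3bp lie left of 0 at every gate.

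Gbp3 was higher in Foxp3+ cells at every gate, by 2.19 ± 0.16 at CD24hi, 2.67 ± 0.16 at CD24int and 2.26 ± 0.16 at CD24lo (adjusted p of at most 1.91e-10). At CD24int it stood at 10.04, 10.32 and 10.00 in Foxp3+ cells and at 7.46, 7.29 and 7.60 in Foxp3- cells, a 6.37-fold difference with no overlap. Samhd1 differed by 0.42 ± 0.11, 1.22 ± 0.11 and 1.73 ± 0.11 at the same gates (adjusted p of at most 0.00569). At CD24lo it stood at 11.57, 11.59 and 11.72 in Foxp3+ cells and at 9.79, 9.83 and 10.05 in Foxp3- cells.

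Mx1 differed by 1.63 ± 0.19, 0.92 ± 0.19 and 0.58 ± 0.19, with adjusted p of at most 0.0303. Its samples at CD24hi were 7.42, 7.03 and 6.80 in Foxp3+ cells and 5.83, 5.44 and 5.07 in Foxp3- cells, so that the groups did not overlap. Ifi35, which binds other interferon-induced proteins, completed the 4 genes that were higher at CD24int (0.32 ± 0.11, adjusted p = 0.0455). That call was lost without replicate 2 (adjusted p = 0.232) or 3 (0.0809) of Foxp3- CD24int, without replicate 1 (0.212) or 2 (0.0742) of Foxp3+ CD24int, with the compared groups alone (0.222) and with quantile normalisation (0.0589).

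Oas2 was lower in Foxp3+ cells at every gate. At CD24int it stood at 7.79, 7.48 and 7.43 against 10.30, 9.94 and 9.69, a 5.31-fold difference without overlap (-2.41 ± 0.20, adjusted p = 2.2e-09). The differences at CD24hi (-1.22 ± 0.20, adjusted p = 7.27e-05) and CD24lo (-1.86 ± 0.20, adjusted p = 1.01e-07) were smaller in size. Lgals3bp was lower by 0.44 ± 0.14, 1.03 ± 0.14 and 1.41 ± 0.14, of which the first was lost without replicate 1 (adjusted p = 0.0927) or 3 (0.0679) of Foxp3- CD24hi or without replicate 1 (0.0685) or 2 (0.118) of Foxp3+ CD24hi. At CD24lo its Foxp3- samples of 9.57, 9.55 and 9.65 lay far above the Foxp3+ samples of 8.09, 8.06 and 8.40 (adjusted p = 2.07e-08).

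Several effectors were lower in Foxp3+ cells at the later gates. Oas3 was lower at CD24int (-1.12 ± 0.15, adjusted p = 2.58e-06) and CD24lo (-1.74 ± 0.15, adjusted p = 9.91e-10), as was Rsad2, the antiviral enzyme viperin (-0.77 ± 0.18 and -0.93 ± 0.18, adjusted p of at most 0.00306). The 12 genes lower at CD24int and the 10 lower at CD24lo, from separate arrays, had 8 in common (66.7% and 80% of each list).

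Oas1a was lower in Foxp3+ cells at CD24lo, where samples of 8.21, 8.77 and 8.44 met 9.65, 9.88 and 9.90 (-1.33 ± 0.19, adjusted p = 7.89e-06). At CD24hi it was higher (0.57 ± 0.19, adjusted p = 0.0396), a call lost without the liver-transcript array (0.46, adjusted p = 0.175). Ifit3 was higher at CD24hi (0.89 ± 0.17, adjusted p = 0.000366) and lower at CD24lo (-0.71 ± 0.17, adjusted p = 0.00282). The interaction tests above give the difference itself for both genes.

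Usp18 and the transcription factor Irf9 were higher in Foxp3+ cells at CD24hi and CD24lo and were not called at CD24int. Usp18 differed by 0.80 ± 0.15 at CD24hi (adjusted p = 0.000335), 0.21 ± 0.15 at CD24int (0.447) and 0.76 ± 0.15 at CD24lo (0.000416). Irf9 differed by 0.48 ± 0.09, 0.11 ± 0.09 and 0.70 ± 0.09 (adjusted p = 0.000299, 0.533 and 1.54e-06). At CD24lo the Irf9 samples were 10.17, 10.10 and 10.21 in Foxp3+ cells and 9.38, 9.48 and 9.53 in Foxp3- cells. Irf7 was higher at CD24hi (0.56 ± 0.13, adjusted p = 0.00239) and not called at CD24lo (0.13 ± 0.13, adjusted p = 0.592), and Irf1 was not called at any gate (0.06, -0.10 and -0.09).

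Tap1 was higher at CD24hi (0.74 ± 0.13, adjusted p = 0.000127) and CD24lo (0.68 ± 0.13, adjusted p = 0.00023). With the mean of its 4 probe sets, of which the 3 others averaged 2.52 to 5.16 log2 units, the first value was 0.17 (adjusted p = 0.183). Gbp2 ran against Gbp3: it was lower in Foxp3+ cells at CD24hi (-0.77 ± 0.12, adjusted p = 2.43e-05) and CD24int (-0.67 ± 0.12, adjusted p = 0.000155). Guanylate-binding proteins resemble one another in sequence, and cross-hybridisation between their probes was not tested.

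Markers of other cells differed in these sorts at CD24lo. Of 6 NK and innate-like T cell markers, 5 were lower and 1 higher in Foxp3+ cells, with summed intensities of 222 to 272 in Foxp3+ and 2859 to 3972 in Foxp3- samples. Ifng stood at 6.18 ± 0.37 in Foxp3+ CD24lo and 9.49 ± 0.08 in Foxp3- CD24lo (-3.31 ± 0.44, adjusted p = 2.3e-06). Antigen-presenting cell markers were lower in 3 of 7, with sums of 267 to 336 against 601 to 791. Their part in the results at CD24lo was not tested. At CD24int the NK list had 3 lower and 1 higher in Foxp3+ cells (sums of 250.1 to 286 against 241 to 454), plasmacytoid dendritic cell markers 3 lower of 5 (1107 to 1281 against 1565 to 1873) and antigen-presenting cell markers 2 lower of 7 (298 to 457 against 420.3 to 619), and their part was not tested. At CD24hi the NK list had 2 higher and 0 lower, with sums of 216 to 270.4 and 118 to 166. Immature thymocyte markers were lower in Foxp3+ cells in 3 of 5, with sums of 2205 to 2888 against 7339 to 9469, and their part was not tested.

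Lymph node Tregs and naive T cells show the same contrast in the periphery. Of 40 genes, 9 were higher in Tregs and 4 lower (8.01% and 4.35% of all genes), with a median of 0.11 against -0.04. With the replicate block 9 were higher and 7 lower (10.9% and 7.22% of all genes). Gbp3 stood at 11.31, 11.23 and 11.07 in Tregs and at 8.24, 8.05 and 7.50 in naive cells, a 9.65-fold difference without overlap (3.27 ± 0.16, adjusted p = 1.34e-13). Samhd1 was at 11.84, 11.82 and 11.80 against 10.32, 10.32 and 10.27 (1.52 ± 0.11, adjusted p = 6.43e-11). Isg20, an RNA exonuclease, was at 9.70, 9.45 and 9.65 against 8.45, 8.41 and 8.35 (1.19 ± 0.13, adjusted p = 2.31e-07).

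The other genes higher in lymph node Tregs included Mx1 (1.12 ± 0.19), the kinase Eif2ak2, which halts translation on double-stranded RNA (0.87 ± 0.16), and Oas1a (0.84 ± 0.19), with adjusted p of at most 0.00324. The 4 lower genes were Oas2 (-1.18 ± 0.20), Ifit2 (-0.65 ± 0.12), Lgals3bp (-0.65 ± 0.14) and Oasl1 (-0.60 ± 0.14), with adjusted p of at most 0.00321. The block added Oasl2 (-0.71, adjusted p = 0.00715), Irf7 (-0.32, 0.00781) and Gbp2 (-0.33, 0.0423). The 4 genes lower without the block were also among the 10 lower genes at thymic CD24lo, which rest on separate arrays. Of the 9 higher genes, 4 (44.4%) were among the 10 higher at CD24lo (40%), namely Gbp3, Samhd1, Mx1 and Igtp.

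Tested directly, the signed Treg difference was more positive in lymph node than at thymic CD24lo for 7 genes and more negative for 1 (7.05% and 3.92% of all genes). The second count was 1 to 3 with an array left out, and over 1 without replicates 1 or 3 of Foxp3- CD24lo, replicate 2 of Foxp3+ CD24lo, lymph node naive replicate 3 or lymph node Treg replicate 1. Oas1a led (2.17 ± 0.27, adjusted p = 2.85e-06), with Oas3 (1.62 ± 0.21, adjusted p = 3.06e-06), Gbp3 (1.01 ± 0.23, adjusted p = 0.00344) and Isg20 (0.98 ± 0.19, adjusted p = 0.000672). Irf9 was the gene with the more negative difference (-0.60 ± 0.13, adjusted p = 0.00196). A more positive value was not always a larger difference. Oas3 means were 5.55 in lymph node Tregs and 5.66 in naive cells, and 5.47 in Foxp3+ and 7.20 in Foxp3- CD24lo cells. Oas1a changed sign, with means of 8.47 and 7.63 in lymph node and of 8.47 and 9.81 at CD24lo. Gbp3 was higher in Tregs at both sites. NK and innate-like T cell markers were lower in lymph node Tregs in 3 of 6, with sums of 234 to 293 against 474 to 544 in naive cells. In the direct test this list had 4 more positive and 1 more negative of 6 (median 2.70), and antigen-presenting cell markers 2 more positive and 0 more negative of 7. NK list sums at thymic CD24lo were 222 to 272 in Foxp3+ and 2859 to 3972 in Foxp3- samples. The part of these lists was not tested.

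Many of the genes were lower in lymph node cells than in the CD24lo thymocytes of their class. In naive cells against Foxp3- CD24lo, 5 genes were higher and 23 lower (6.03% and 8.58% of all genes), with a median of -0.57 against 0.03, and arrays did not overlap in 30 genes (30.1% of all genes). The count of 5 was 3 without replicate 1 or 2 of Foxp3- CD24lo, 2 without replicate 1 or 2 of the naive cells, 3 with the mean of all probe sets and 2 with the compared groups alone. Effectors made up 16 of the 23 lower genes, and 5 of the 6 sensors were lower. Oas1a samples were 7.90, 7.66 and 7.32 in naive cells against 9.65, 9.88 and 9.90 (-2.18 ± 0.19, adjusted p = 7.21e-09), and Mx1 samples 5.11, 5.06 and 4.52 against 6.56, 6.28 and 6.58 (-1.58 ± 0.19, adjusted p = 1e-06). Neither overlapped. NK and innate-like T cell markers were lower in naive cells in 4 of 6 and higher in 1, with sums of 474 to 544 against 2859 to 3972. Plasmacytoid dendritic cell markers were lower in 4 of 5, and the part of both lists was not tested.

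In lymph node Tregs against Foxp3+ CD24lo cells, 1 gene was higher and 14 lower (3.15% and 2.78% of all genes, 5.93% in all), with a median of -0.30 against 0.01. Without lymph node Treg replicate 2 the counts were 0 and 9. Usp18 stood at 8.14, 8.27 and 8.02 in lymph node Tregs and at 9.37, 9.54 and 9.41 in Foxp3+ CD24lo, with no overlap (-1.30 ± 0.15, adjusted p = 2.24e-06). Irf7 samples were 8.34, 8.04 and 7.93 against 9.13, 9.09 and 9.02 (-0.97 ± 0.13, adjusted p = 1.45e-05). Mx1 (-1.04 ± 0.19), Ifit1 (-0.96 ± 0.14) and Ifih1 (-0.73 ± 0.11) were lower with adjusted p of at most 0.000776.

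Gbp3 was the gene higher in lymph node Tregs (0.61 ± 0.16, adjusted p = 0.0225), a call that was lost without replicate 1 or 2 of lymph node Tregs (adjusted p = 0.0998 and 0.0703) or replicate 1, 2 or 3 of Foxp3+ CD24lo (0.0698, 0.0678 and 0.0642). NK and innate-like T cell markers had 1 higher and 0 lower of 6 here, with sums of 234 to 293 and 222 to 272. Antigen-presenting cell markers had 2 higher of 7 (482 to 762 against 267 to 336), B cell markers 1 higher of 4 (145 to 267 against 72.03 to 77.4), immature thymocyte markers 2 lower of 5 and plasmacytoid dendritic cell markers 1 lower of 5, and their part was not tested. The 14 genes lower in lymph node Tregs and the 23 lower in naive cells had 12 in common (85.7% and 52.2% of each list), from separate arrays, among them Usp18, Irf7, Dhx58, Ifih1, Ifit1, Ifit3, Mx1 and Mx2.

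Receptor genes of the pathway were measured beside its targets. Of 10 measured receptor and signalling genes, 5 were higher and 0 lower in Foxp3+ cells at CD24hi, 4 and 0 at CD24int and 5 and 0 at CD24lo, and without the liver-transcript array the CD24hi counts were the same. Of all genes, 8.38%, 8.66% and 9.85% were higher at these gates. Ifngr1, which binds interferon gamma, differed by 1.63 ± 0.15, 1.50 ± 0.15 and 1.47 ± 0.15 (adjusted p of at most 5.08e-08), and Ifnar1 by 0.50 ± 0.10, 0.40 ± 0.10 and 0.69 ± 0.10 (adjusted p of at most 0.0061). In lymph node Tregs against naive cells 3 were higher and 0 lower, Ifngr1 among them (1.05 ± 0.15, adjusted p = 1.27e-05). From precursors to Foxp3+ CD24hi, 4 were higher and 0 lower (6.77% and 9.27% of all genes). In lymph node Tregs against Foxp3+ CD24lo 0 were higher and 2 lower (3.15% and 2.78% of all genes). The signed Treg difference was more positive in lymph node than at thymic CD24lo for 0 and more negative for 2 (7.05% and 3.92% of all genes).

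Of 6 measured interferon genes, Ifng alone passed in any of the comparisons given here. It was higher in precursors than in Foxp3- CD24hi (2.82 ± 0.44, adjusted p = 6.85e-05), where 14 of the 40 response genes were lower, and lower in Foxp3+ CD24hi than in precursors (-1.60 ± 0.44, adjusted p = 0.0125). Signalling inhibitors had 3 higher and 1 lower of 9 in Foxp3+ cells at CD24hi (2 and 1 without the liver-transcript array) and 4 higher and 1 lower at CD24lo, led by Cish, which is also a target of interleukin signals (3.09 ± 0.13 and 2.94 ± 0.13, adjusted p of at most 1.24e-14).

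A further 41 interferon-induced genes outside the 40 were counted in the same way. From precursors to Foxp3+ CD24hi 18 were higher and 2 lower (median 0.34), with the GTPase genes Gbp6 (1.22 ± 0.12, adjusted p = 1.03e-07), Gbp7 (1.29 ± 0.14, adjusted p = 5.68e-07) and Irgm2 (1.29 ± 0.15, adjusted p = 1.06e-06). From Foxp3- CD24hi to CD24int 15 were higher and 0 lower (median 0.38), and without the liver-transcript array 11 and 0. At CD24hi 17 were higher and 0 lower in Foxp3+ cells (median 0.30), or 16 and 0 without that array, and at CD24lo 16 and 2 (median 0.20). At CD24int 9 were higher and 4 lower in Foxp3+ cells (median -0.05), where the 40 genes had 4 and 12. Precursors against Foxp3- CD24hi had 6 higher and 6 lower (median -0.19), or 6 and 5 without that array, where the 40 genes had 0 and 14. Lymph node naive cells against Foxp3- CD24lo had 9 and 8 (median -0.02), where the 40 genes had 5 and 23. The shares of all genes called in each comparison are those given above. Gbp6 was higher in Foxp3+ cells at CD24hi (1.58 ± 0.12, adjusted p = 4.02e-10) and CD24lo (1.09 ± 0.12, adjusted p = 1.51e-07).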

How the data were processed

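The deposited values are Affymetrix intensities that the authors made with RMA, per the submitters' processing notes, whose version and settings are not given in the sources used here. Their range was 3.55 to 24083, with medians per array between 30.3 and 32.0, and they were transformed to log2 with no added constant. Per the labels, 50 ng of total RNA was labelled with biotin. Of 45101 probe sets, 34958 named 1 gene symbol in the platform table, 932 several and 9211 none, and only the first kind was used. The brightest probe set represented each of 18194 genes, and 17 of the 40 genes described had more than 1.

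A linear model of 9 group means over all 27 arrays was fitted with limma 3.58.1 in R 4.3.3, with empirical Bayes moderation (residual degrees of freedom 18, prior 5.98). Two-sided p-values were adjusted by Benjamini-Hochberg over 18194 genes in each of 18 comparisons, and a gene passed under 0.05. The fit was tested on simulated data. Differences are first group minus second, ± SE. The genes, gene lists and comparisons were chosen with earlier results of these data known.

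Values per array were given by a rule: up to 8 genes with the widest range of group means and, per comparison, up to 6 called rises and 6 called falls. Genes of related lists were named by smallest p, and Foxp3, Il2ra and Cd24a checked the sorts. Replicate numbers came from the first digit in each sample's description. Deviations of same-numbered arrays from their group means correlated above 0.1 in every pair in 11 of 18 comparisons. These were taken as paired from the data alone, since no label says what the digit marks. The main fit did not use this pairing, and counts and p-values rest on the replicate number as a block only where that is stated. Alternatives were the mean of all probe sets, quantile normalisation, removal of dim genes, the replicate number as a block, the compared groups alone, and each array left out. Counts by role, motif and list without the liver-transcript array were added after the values were seen.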

Additional observations from a re-analysis of the deposited data

Results flagged for a closer look

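The results below were picked out because the change along the CD24 gates, or the difference between Tregs and conventional cells, differed between groups by a test of that difference itself (limma interaction terms, adjusted over 18194 genes). No explanation was weighed.

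From CD24hi to CD24int the change in Foxp3+ cells minus that in Foxp3- cells was 0.81 ± 0.15 for Samhd1 (adjusted p = 0.00331). It was -1.25 ± 0.30 for Cmpk2 (0.0272), -1.19 ± 0.29 for Oas2 (0.0308), -1.04 ± 0.24 for Ifit3 (0.0224), -0.90 ± 0.21 for Oas3 (0.0198), -0.76 ± 0.20 for Dhx58 (0.0475) and -0.74 ± 0.19 for Irgm1 (0.04). Each of these 6 lower genes missed the threshold when at least 4 different arrays were left out in turn, and without the liver-transcript array only Samhd1 and Oas3 of these 7 genes passed.

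From CD24int to CD24lo the same difference was 0.59 ± 0.13 for Irf9 (adjusted p = 0.00459), 0.51 ± 0.15 for Samhd1 (0.0467) and -1.48 ± 0.27 for Oas1a (0.000883). From CD24hi to CD24lo it was 1.32 ± 0.15 for Samhd1 (7.37e-07), -1.91 ± 0.27 for Oas1a (2.39e-05), -1.60 ± 0.24 for Ifit3 (4.51e-05), -1.52 ± 0.21 for Oas3 (1.07e-05), -1.25 ± 0.30 for Cmpk2 (0.00662), -1.06 ± 0.27 for Mx1 (0.0116) and -0.96 ± 0.20 for Lgals3bp (0.00157). The Samhd1 call from CD24int to CD24lo was lost with averaged probe sets, with quantile normalisation and with the compared groups alone.

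The Foxp3+ minus Foxp3- difference at thymic CD24lo was subtracted, with its sign, from the Treg minus naive difference in lymph node. The result was 2.17 ± 0.27 for Oas1a (adjusted p = 2.85e-06), 1.62 ± 0.21 for Oas3 (3.06e-06), 1.01 ± 0.23 for Gbp3 (0.00344), 0.98 ± 0.19 for Isg20 (0.000672), 0.93 ± 0.25 for Rsad2 (0.016) and 0.86 ± 0.24 for Ifit3 (0.0192). The Rsad2 call was lost without Foxp3- CD24lo replicate 3, Foxp3+ CD24lo replicate 2 or lymph node naive replicate 2, and the Ifit3 call without Foxp3- CD24lo replicate 3 or Foxp3+ CD24lo replicate 1. For Irf9 the result was -0.60 ± 0.13 (0.00196).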

How the results depend on the processing

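No called gene named by the rule changed direction under the alternatives run. The median of the 40 genes from CD24hi to CD24lo in Foxp3+ cells, -0.02, turned to 0.00067 with the mean of all probe sets. Of the counts of called genes among the 40, those that moved by over 1.5 times were as follows. From CD24hi to CD24int in Foxp3+ cells the count of 0 became 1 with the mean of all probe sets, quantile normalisation, removal of dim genes and the replicate block. From CD24hi to CD24lo in Foxp3+ cells the count of 1 became 3, 2 and 2 with the first 3 of these and 7 with the replicate block. The block also took the interaction from CD24hi to CD24lo from 8 to 15 and that between lymph node and thymus from 8 to 15. In those 2 comparisons the numbers were not taken to pair the samples. It moved no other total by over 1.5 times, though the lower count for lymph node Tregs against naive cells went from 4 to 7. With the block, precursors to Foxp3+ CD24hi had 32 higher and 1 lower (10.2% and 14.3% of all genes). Foxp3- CD24hi to CD24int had 26 and 1 (4.48% and 5.53%), CD24int to CD24lo 4 and 16 (11.6% and 7.15%) and CD24hi to CD24lo 14 and 2 (12.6% and 10.7%). Foxp3+ against Foxp3- at CD24hi had 21 and 3 (11.3% and 14.2%), and lymph node Tregs against Foxp3+ CD24lo 2 and 18 (5.7% and 4.86%). With the compared groups alone, Foxp3- CD24hi to CD24int gave 11 (from 23), Foxp3- CD24int to CD24lo 11 (from 17), the interaction from CD24hi to CD24int 1 (from 8) and that from CD24int to CD24lo 1 (from 3).

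With each array left out in turn, counts ranged from 8 to 13 for precursors against Foxp3- CD24hi (14 with all arrays), from 15 to 24 for Foxp3- CD24hi to CD24int, from 10 to 14 for Foxp3- CD24int to CD24lo, from 0 to 1 for Foxp3+ CD24hi to CD24int and from 1 to 2 for Foxp3+ CD24hi to CD24lo. They ranged from 9 to 16 for Foxp3+ against Foxp3- at CD24int, from 9 to 14 for lymph node Tregs against Foxp3+ CD24lo and from 2 to 6 for the interaction from CD24hi to CD24int. The mean deviation of the 40 genes in each of the 9 groups moved by less than its SD under the alternatives run. Of 121 single-gene calls named by the rule, 10 were lost when probe sets were averaged, 3 with quantile normalisation and 15 with the compared groups alone. Over all fits with 1 array left out, these calls were lost 122 times and kept 748 times, each call counted once per fit. The number of arrays and the lack of detection calls limit what small differences of dim genes can show. The cause of these changes was not tested. The fit of the compared groups alone holds fewer samples and estimates the spread from those groups only.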
